A study of Homo sapiens with 6 samples.

Results

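The clustered protocadherins were taken as the protein-coding genes whose symbols start with PCDHA, PCDHB or PCDHG and whose RefSeq transcripts are listed in the deposited table. There were 53 such genes among 28434, of which 15 belonged to the alpha, 16 to the beta and 22 to the gamma cluster. Their 97 transcript entries were summed per gene. The measurements are RNA sequencing of A549, an established human lung adenocarcinoma line. Cells had been infected with lentivirus so that they stably expressed a hairpin (shRNA), which in 2 groups was directed at CBX8, a chromobox subunit of Polycomb repressive complexes, and the study examined the change in expression with its knockdown. The groups were shCBX8-1, shCBX8-2 and a control hairpin, with 2 libraries each; all cells therefore carried a lentiviral hairpin. The labels do not say what the number after shCBX8 stands for, whether a stable line is a clone, or whether both libraries of a group were grown separately. The p-values therefore set differences only against the scatter between these particular libraries, and that scatter may be technical.

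Clustered protocadherins are cell-surface adhesion proteins of the cadherin superfamily that bind to the same isoform on a facing cell and are best known from neurons, where each cell uses its own combination. Every variable exon has a promoter of its own. In the alpha and gamma clusters the variable exon encodes the extracellular domain and the membrane span and is spliced to 3 constant exons that encode the shared cytoplasmic end, while beta genes have no constant exons. Promoter choice is known to depend on DNA methylation, on CTCF and on cohesin, which loop distant enhancers to the promoters, and the last genes of the alpha and gamma clusters, the C-types, are regulated differently from the rest.

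All members lie on the plus strand of chromosome 5 (RefSeq coordinates, GRCh38.p14). The alpha cluster runs from the start of PCDHA1 at 140786140 to the shared end at 141012347, the beta cluster from PCDHB1 at 141051374 to the end of PCDHB15 at 141249365, and the gamma cluster from PCDHGA1 at 141330514 to the shared end at 141512975. RefSeq promoter windows were matched for 47 of the 53 genes. Each ran from 250 bases before to 50 after the start. Within each cluster the most widely shared 8-base word around the core CGCT was searched on both strands. The alpha word ATGTCGCT was in 9 of 13 alpha promoters, in 0 beta and 0 gamma promoters and in 0.234% of 35116 promoters in the table. The beta word GTGGCGCT was in 13 of 14 beta promoters and 1.15% of all promoters. The gamma word GCCGCTGT was in 11 of 20 gamma promoters and 1.63% of all. Neither word was found in the promoters of the other clusters. The core itself was in 12 of 13 alpha, 14 of 14 beta and 20 of 20 gamma promoters, but also in 70.0% of all promoters. These words were picked from the promoters they are counted in, so the counts are descriptions.

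The promoter stretches of 5 members whose values are given below are printed 5′ to 3′, from position -150 to -41 relative to the RefSeq start. Capitals mark the word of the member's cluster, and in PCDHAC1, a C-type without the alpha word, the core. The stretches lie at chr5:141094465-141094574 for PCDHB2, chr5:141397797-141397906 for PCDHGB5 (1 of its annotated starts), chr5:141475816-141475925 for PCDHGC3, chr5:140806918-140807027 for PCDHA4 and chr5:140926149-140926258 for PCDHAC1.
PCDHB2: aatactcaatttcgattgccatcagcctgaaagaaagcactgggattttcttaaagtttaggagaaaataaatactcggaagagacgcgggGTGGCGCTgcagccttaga
PCDHGB5: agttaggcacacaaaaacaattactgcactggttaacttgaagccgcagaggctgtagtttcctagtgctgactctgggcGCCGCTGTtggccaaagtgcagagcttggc
PCDHGC3: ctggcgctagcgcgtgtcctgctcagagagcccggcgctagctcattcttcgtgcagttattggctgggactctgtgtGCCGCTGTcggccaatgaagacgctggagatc
PCDHA4: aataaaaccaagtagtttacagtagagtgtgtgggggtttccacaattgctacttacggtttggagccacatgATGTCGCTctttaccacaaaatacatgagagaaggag
PCDHAC1: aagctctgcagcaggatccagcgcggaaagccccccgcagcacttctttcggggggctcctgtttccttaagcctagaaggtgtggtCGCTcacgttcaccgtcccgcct

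The first constant exon bears on how counts can be given to a member, because each alpha transcript that reaches it carries the same letters, as does each gamma transcript. In GENCODE v29 (GRCh38) it is a coding exon of 59 bases at chr5:140978949-140979007 in 18 alpha entries of 15 genes and at chr5:141494807-141494865 in 24 gamma entries of 22 genes. Capitals mark the 39 of 59 positions (66.1%) at which the alpha and gamma exons are identical.
alpha: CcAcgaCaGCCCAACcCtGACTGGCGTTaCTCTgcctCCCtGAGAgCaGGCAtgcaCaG
gamma: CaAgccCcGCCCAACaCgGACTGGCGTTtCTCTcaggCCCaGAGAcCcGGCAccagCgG

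Total estimated counts were 64197784 to 67169537 per library. CBX8 had 7.79 and 7.70 CPM (TMM-scaled counts at one common library size) in shCBX8-1, 17.7 and 13.8 CPM in shCBX8-2 and 24.6 and 26.3 CPM in control. It fell against control in shCBX8-1 (log2 fold change -1.72 ± 0.16 SE, adjusted p = 0.00701 by edgeR) and in shCBX8-2 (-0.69 ± 0.15, adjusted p = 0.0296), and was higher in shCBX8-2 than in shCBX8-1 (log2 difference 1.02 ± 0.15 SE, adjusted p = 0.0114). Both falls kept their sign without each library in turn, but with 1 control or 1 shCBX8-1 library left out neither passed, with an adjusted p of up to 0.145 for shCBX8-1 and 0.169 for shCBX8-2. The shCBX8-2 libraries stood apart from the rest: per gene they differed from each other by a median of 0.234 log2, against 0.126 in shCBX8-1 and 0.127 in control. Across 15608 genes, which are not independent, a library's deviation from the mean of all 6 followed transcript GC content with a Spearman correlation of 0.346 in shCBX8-2 replicate 1 and -0.244 in replicate 2, and between -0.164 and -0.016 in the other libraries. Where leaving out an shCBX8-2 library changed a call of PCDHB2, PCDHGC3 or PCDHAC1, the value without it stands with the result. Further members gained a call in this way and enter only the numbers called.

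The alpha cluster had the highest summed level and kept nearly the same total in all 3 groups, while the beta and gamma totals were lowest in shCBX8-2. Alpha genes summed to 61.5 ± 0.56 CPM in shCBX8-1, 65.6 ± 6.37 CPM in shCBX8-2 and 60.5 ± 1.62 CPM in control (SD, n = 2 each). Beta genes summed to 6.07 and 7.35 CPM in shCBX8-1, 0.946 and 1.53 CPM in shCBX8-2, and 3.56 and 3.65 CPM in control. The 3 groups did not overlap, with shCBX8-1 highest and shCBX8-2 lowest. Gamma genes summed to 24.0 and 22.3 CPM in shCBX8-1, 11.2 and 13.0 CPM in shCBX8-2, and 20.3 and 20.7 CPM in control, again with shCBX8-2 below both other groups.

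On the log2 scale the ratio of group means for shCBX8-2 over control was 0.12 for alpha, -1.54 for beta and -0.76 for gamma, beside replicate SDs of 0.08, 0.3 and 0.1. For shCBX8-1 over control it was 0.02, 0.9 and 0.18. For shCBX8-2 over shCBX8-1 it was 0.09, -2.44 and -0.94. Without shCBX8-2 replicate 1 the ratio to control was -1.24 for beta and -0.66 for gamma, and without replicate 2 it was -1.93 and -0.87. These totals rest on 396 and 485 beta counts in shCBX8-1, 60 and 96 in shCBX8-2 and 236 and 244 in control. They do not depend on how reads of constant exons were divided among members. They carry no test, and in bulk RNA fewer cells with a transcript and less of it per cell cannot be told apart. Median transcript GC was 47.9% for alpha, 47.6% for beta and 55.2% for gamma genes, against 49% over all genes with a value, and the part of GC content in these totals was not tested.

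**Figure D1:**
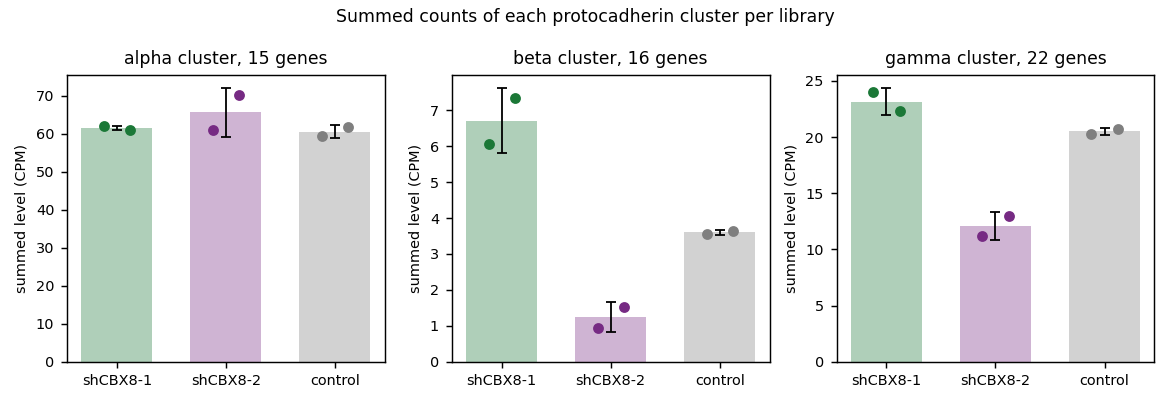
Summed level of each protocadherin cluster in CPM; points are libraries, bars are group means and error bars are SDs (n = 2). Alpha totals lie between 59.4 and 70.1 CPM in all libraries, while beta and gamma totals are lowest in shCBX8-2.

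Most members were rare transcripts in these cells. Of the 53 genes, 2 (PCDHB1 and PCDHGC4) had no counts in any library and 18 had counts in all 6. The number with any count was 39 and 45 in the shCBX8-1 libraries, 29 and 32 in the shCBX8-2 libraries, and 37 and 43 in the control libraries. Both shCBX8-2 libraries were below the others, and the gap was in the beta cluster (6 and 8 of 16, against 13 and 12 in shCBX8-1 and 10 and 13 in control) and, less evenly, in the gamma cluster (9 and 12 of 22, against 12 and 18 in shCBX8-1 and 15 and 16 in control). Genes with very few counts, such as PCDHB9 with 1 and 3 in shCBX8-1, entered these numbers. Detection per library was not taken over all genes, so whether the gap is particular to the members was not tested. The filter on low counts left 29 members for testing, 13 alpha, 6 beta and 10 gamma. The other 24 had at most 37 counts in a library.

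Per kilobase of transcript, PCDHA12 was the most abundant member at 3.9 CPM per kb over all libraries, followed by PCDHAC2 at 3.1, PCDHGC3 at 2.79, PCDHAC1 at 1.57, PCDHA11 at 1.1, PCDHA4 at 0.871, PCDHGB5 at 0.698, PCDHB2 at 0.59 and PCDHA5 at 0.379 CPM per kb. The order was not the same in every group: in shCBX8-2 PCDHA5 had 0.44 and 0.542 CPM per kb, above PCDHGB5 at 0.23 and 0.327 and PCDHB2 at 0.138 and 0.212 CPM per kb. Neighbours in this order were not separated by their spread: PCDHA12 ranged from 8.55 to 29.2 CPM and PCDHAC2 from 12.2 to 31.8 CPM between libraries.

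**Figure D2:**
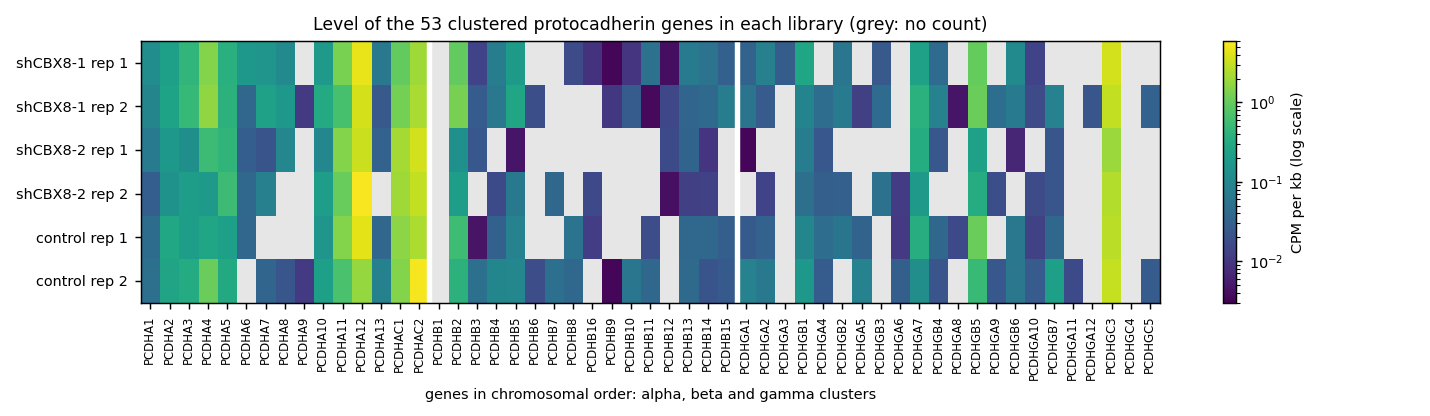
Level of each of the 53 genes (columns, in chromosomal order, clusters separated by white lines) in each library (rows), in CPM per kb on a log colour scale, with grey for no count. A few alpha genes and PCDHGC3 hold most of the signal, and the shCBX8-2 rows have the most grey cells in the beta and gamma clusters.

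Tested gene by gene, few members were called in any comparison. In shCBX8-2 against shCBX8-1, 3 of the 29 tested members fell and 1 rose (edgeR quasi-likelihood test, Benjamini-Hochberg over 17107 genes), beside 9.84% of all tested genes, 5.79% that fell and 4.05% that rose. DESeq2 called 7 members there. In shCBX8-2 against control, 2 of the 29 fell and 0 rose, beside 12.7% of all tested genes, 6.66% that fell and 6.03% that rose; DESeq2 called 3. With 1 library left out, the number called was 0 to 7 in shCBX8-2 against shCBX8-1 and 0 to 4 against control. In shCBX8-1 against control edgeR called 0 members, beside 2.47% of all tested genes, 1.34% that rose and 1.13% that fell; 4 had an unadjusted p under 0.05 and DESeq2 called 1. In the mean of both knockdown groups against control edgeR also called 0, beside 6.82% of all tested genes, 3.33% that rose and 3.5% that fell; 2 had an unadjusted p under 0.05 and DESeq2 called 0. The comparisons share libraries and are not independent of each other.

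Counted by overlap of libraries alone, 23 of the 51 members with any count (45.1%) were lower in both shCBX8-2 libraries than in both shCBX8-1 libraries, beside 23.9% of all genes with any count, and 4 (7.84%) were higher, beside 23.0%. The 23 comprised 6 of 15 alpha, 9 of 15 beta and 8 of 21 gamma genes. The 4 higher ones were all alpha genes, PCDHA5, PCDHA11, PCDHAC1 and PCDHAC2. Against control, 18 members (35.3%) were lower in both shCBX8-2 libraries, beside 27.1% of all genes, and 3 (5.88%) were higher, beside 22.7%. Members with no count in either shCBX8-2 library, such as PCDHB9 (1 and 3 counts in shCBX8-1), could be lower or tied but never higher. The shares over all genes were not matched for level, so these numbers are descriptions and no test. Members of a cluster share sequence and a locus and are not independent.

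**Figure D3:**
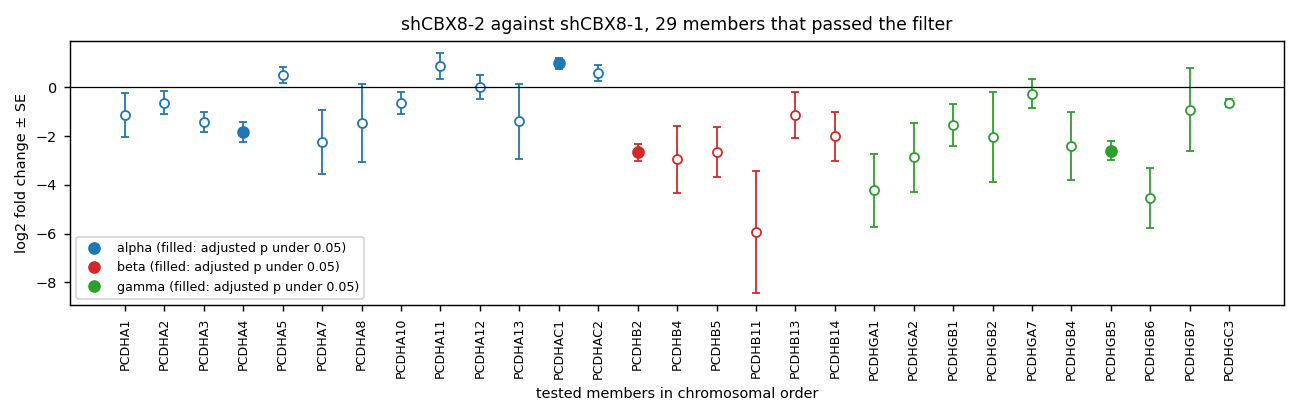
Log2 fold change of shCBX8-2 over shCBX8-1 with its standard error for the 29 tested members in chromosomal order, coloured by cluster, with filled points for an adjusted p under 0.05. All 6 beta and all 10 gamma members have a negative value, while the alpha members lie on both sides of 0. Some have almost no counts in shCBX8-2, such as PCDHB11 (0 and 0) and PCDHGB6 (2 and 0). These passed the filter on counts in other groups, which fixed their sign, so the shared sign is no test. The median over all genes tested was -0.01.

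In the beta cluster the leading gene was PCDHB2 (chr5, 141094615 to 141098703), which held 68.2 ± 2.93% of the beta counts in shCBX8-1, 58.6 ± 1.92% in shCBX8-2 and 55.2 ± 14.9% in control. Its level was 4.02 and 5.17 CPM in shCBX8-1, 0.567 and 0.874 CPM in shCBX8-2, and 2.34 and 1.63 CPM in control, with no overlap between any of the groups. PCDHB2 fell in shCBX8-2 against shCBX8-1 (log2 fold change -2.67 ± 0.34 SE, adjusted p = 0.00727 by edgeR) and against control (-1.46 ± 0.34, adjusted p = 0.0351). In shCBX8-1 against control it was at 1.21 ± 0.32, which did not pass the test by edgeR (adjusted p = 0.115). It passed by edgeR without shCBX8-2 replicate 1 or 2 (adjusted p = 0.0223 and 0.0228), when fitted on its own 4 libraries alone (0.0201) and by DESeq2 (0.0288).

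The fall of PCDHB2 against control was close to the threshold. The adjusted p was 0.198 without control replicate 1, 0.113 without control replicate 2, 0.0886 and 0.0931 without shCBX8-1 replicate 1 and 2, and 0.0569 without shCBX8-2 replicate 1. Against shCBX8-1 the adjusted p was 0.0743 without shCBX8-1 replicate 1 and 0.0811 without replicate 2, with a log2 fold change of -2.86 and -2.50. Without shCBX8-2 replicate 1 and 2 it was -2.38 and -3.01 against shCBX8-1, and both passed. PCDHB2 is listed as 1 entry with a single exon, so its counts involve no division over constant exons, although 20.3% of its 50-base words also occur in other members, most often in PCDHB3.

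The other beta genes lay far lower. PCDHB5 had 0.644 and 0.894 CPM in shCBX8-1, 0.0158 and 0.223 CPM in shCBX8-2, and 0.302 and 0.344 CPM in control, with shCBX8-2 below both other groups. It did not pass the test against shCBX8-1 (-2.67 ± 1.03, adjusted p = 0.158). PCDHB4 had 18 and 16 counts in shCBX8-1, 0 and 4 in shCBX8-2, and 8 and 25 in control. PCDHB13 had 22 and 12 counts in shCBX8-1, 11 and 4 in shCBX8-2, and 13 and 14 in control. PCDHB6, PCDHB8, PCDHB9, PCDHB10, PCDHB11 and PCDHB15 had no count in either shCBX8-2 library and at most 20 counts in any other. Of these only PCDHB11 passed the filter on low counts, and its difference from shCBX8-1 did not pass the test (-5.93 ± 2.51, adjusted p = 0.204).

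In the gamma cluster most counts came from PCDHGC3 (chr5, 141475966 to 141512975), the first of the gamma C-types. Its level was 16.6 and 14.0 CPM in shCBX8-1, 9.0 and 10.8 CPM in shCBX8-2, and 12.7 and 14.6 CPM in control, with shCBX8-2 below all other libraries. The log2 difference was -0.63 ± 0.16 against shCBX8-1 (adjusted p = 0.0564 by edgeR) and -0.46 ± 0.16 against control (adjusted p = 0.111), and neither passed. Both passed without shCBX8-2 replicate 2 (-0.76, adjusted p = 0.00953 against shCBX8-1, and -0.60, adjusted p = 0.0254 against control, edgeR), and neither did without replicate 1 (-0.49, adjusted p = 0.0811, and -0.32, adjusted p = 0.216). DESeq2 called the difference from shCBX8-1 (adjusted p = 0.0116) and not that from control (adjusted p = 0.09). Its share of the gamma counts was 81.8 ± 1.82% in shCBX8-2, against 65.9 ± 4.41% in shCBX8-1 and 66.5 ± 5.62% in control. The other gamma genes together thus had a smaller share in shCBX8-2, but not each of them. PCDHGB5 held 6.12 ± 0.871% in shCBX8-2, against 19.6 ± 1.88% in shCBX8-1 and 17.4 ± 8.83% in control. PCDHGA7 held 7.13 ± 3.68% in shCBX8-2, against 4.39 ± 1.68% in shCBX8-1 and 3.76 ± 2.46% in control. None of the 50-base words of the variable exon of PCDHGC3 occurs in another member.

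PCDHGB5 (chr5, 141397947 to 141512975), a gamma gene of the B subfamily, was the other gamma gene above 1 CPM on average. It had 4.39 and 4.67 CPM in shCBX8-1, 0.615 and 0.874 CPM in shCBX8-2, and 4.79 and 2.30 CPM in control, and shCBX8-2 did not overlap with either group. PCDHGB5 fell in shCBX8-2 against control (-2.25 ± 0.40, adjusted p = 0.0156 by edgeR) and against shCBX8-1 (-2.60 ± 0.40, adjusted p = 0.0125). Against control the adjusted p was 0.0875 without control replicate 1, with a log2 fold change of -1.63, and 0.0603 and 0.0608 without shCBX8-1 replicate 1 and 2. Against shCBX8-1 it was 0.104 and 0.105 without shCBX8-1 replicate 1 and 2.

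The fall of PCDHGB5 lay in one of its 2 entries. The 4-exon entry, with the constant exons, had 276 and 284 counts in shCBX8-1, 0 and 0 in shCBX8-2, and 311 and 152 in control. Set against a floor of 3 counts over the group, its CPM in shCBX8-2 was at least 180-fold lower than in shCBX8-1. Against control the bound was 147-fold. The floor covers counting error only, and not the assignment of reads to entries. With 1 library left out these bounds were 89.5-fold to 181-fold against shCBX8-1 and 73-fold to 197-fold against control, lowest without shCBX8-2 replicate 1. The single-exon entry had 10 and 24 counts in shCBX8-1, 39 and 55 in shCBX8-2, and 7 and 2 in control, so it was highest in shCBX8-2. How the step that made the counts divided reads between the entries is not given in the sources used here. Of the 50-base words of the gene's variable exon, 19.5% also occur in PCDHGB4, and its constant exons are shared with other gamma genes. Tested as an entry, the 4-exon one was not called by edgeR (adjusted p = 0.199 against shCBX8-1 and 0.176 against control). That test called 1 and 0 of 40859 entries. The 4-exon entry of PCDHA11 had 292 and 0 counts in control, so the bounds describe counts only.

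Of the remaining gamma genes, PCDHGA7 had 0.767 and 1.24 CPM in shCBX8-1, 1.09 and 0.588 CPM in shCBX8-2, and 1.12 and 0.418 CPM in control, with full overlap. PCDHGB1 had 45 and 16 counts in shCBX8-1, 12 and 8 in shCBX8-2, and 17 and 30 in control. PCDHGB6, named after its values were seen, had 34 and 20 counts in shCBX8-1, 2 and 0 in shCBX8-2, and 19 and 19 in control. It was not called by edgeR against shCBX8-1 (-4.55 ± 1.22, adjusted p = 0.0651) or control (-4.02 ± 1.22, adjusted p = 0.0782), and was called by DESeq2 in both. The C-type PCDHGC5 had 0 and 6 counts in shCBX8-1, 0 and 0 in shCBX8-2, and 0 and 5 in control. The C-type PCDHGC4 had 0 counts everywhere.

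**Figure D4:**
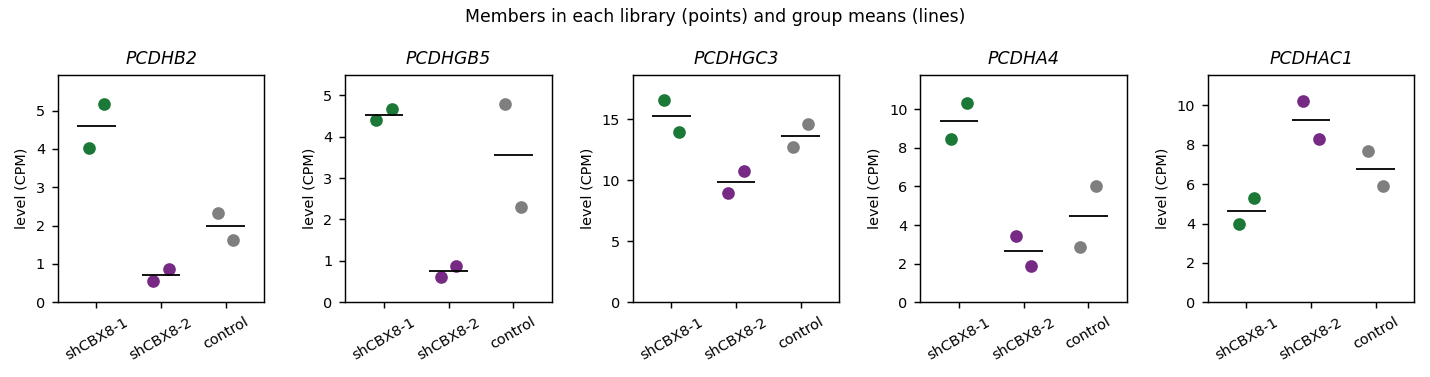
Level in CPM of 5 members in each library (points) with the group mean (line). PCDHB2, PCDHGB5 and PCDHGC3 are lowest in both shCBX8-2 libraries, PCDHA4 is highest in shCBX8-1, and PCDHAC1 is highest in shCBX8-2.

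In the alpha cluster the total hid differences between members in both directions. PCDHA4 had 8.45 and 10.3 CPM in shCBX8-1, 3.42 and 1.86 CPM in shCBX8-2, and 2.85 and 6.04 CPM in control. PCDHA4 fell in shCBX8-2 against shCBX8-1 (-1.83 ± 0.42, adjusted p = 0.0416 by edgeR), while shCBX8-2 and control overlapped. PCDHAC1, the first alpha C-type, had 3.99 and 5.31 CPM in shCBX8-1, 10.2 and 8.30 CPM in shCBX8-2, and 7.67 and 5.89 CPM in control. It rose in shCBX8-2 against shCBX8-1 (0.99 ± 0.22, adjusted p = 0.04), with control between the knockdown groups.

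Both calls were lost in some of the fits with 1 library left out. Control is not part of this contrast, and without either control library the log2 fold change was -1.86 for PCDHA4 and 0.96 for PCDHAC1. A lost call thus need not mean that the difference rested on the library left out. For PCDHA4 the adjusted p was 0.0529 and 0.0554 without control replicate 1 and 2, and 0.177 and 0.213 without shCBX8-1 replicate 1 and 2. It passed without shCBX8-2 replicate 1 and 2, with a log2 fold change of -2.32 and -1.46. For PCDHAC1 it was 0.0845 and 0.0842 without control replicate 1 and 2, 0.238 and 0.129 without shCBX8-1 replicate 1 and 2, and 0.0506 without shCBX8-2 replicate 1. The log2 fold change kept its sign in all of these, between -2.32 and -1.46 for PCDHA4 and between 0.77 and 1.18 for PCDHAC1.

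The most abundant alpha genes varied as much within groups as between them. PCDHA12 had 24.2 and 18.8 CPM in shCBX8-1, 14.3 and 29.2 CPM in shCBX8-2, and 22.9 and 8.55 CPM in control. The C-type PCDHAC2 had 12.2 and 13.7 CPM in shCBX8-1, 20.9 and 17.9 CPM in shCBX8-2, and 14.1 and 31.8 CPM in control. In the control libraries PCDHA12 was the higher of this pair in replicate 1 and PCDHAC2 in replicate 2, although the alpha total was 59.4 and 61.7 CPM. None of the contrasts passed for either gene (lowest adjusted p 0.572 for PCDHA12 and 0.282 for PCDHAC2, edgeR).

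The constant exons offer a way to see where this variation lay. Entries that hold them carried 72.3 ± 1.81% of alpha counts in shCBX8-1, 77.8 ± 0.916% in shCBX8-2 and 76.1 ± 2.14% in control, and 84.1 ± 3.02% of gamma counts in shCBX8-1, 80.8 ± 2.2% in shCBX8-2 and 85.9 ± 0.841% in control (SD, n = 2 each). Of the 18 alpha entries with constant exons, 7 reached 50 counts in a library, and 5 of these had 0 counts in one library and at least 50 in the other library of the same group. Those 5 belonged to PCDHA3, PCDHA4, PCDHA5, PCDHA11 and PCDHAC1. Among gamma entries with constant exons, 2 of 4 did so, 1 each of PCDHGB7 and PCDHGC3. Among entries without constant exons, 0 of the 7 alpha, 2 beta and 2 gamma entries that reached 50 counts did so.

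The 4-exon entry of PCDHA4 had 453 and 499 counts in shCBX8-1, 146 and 0 in shCBX8-2, and 0 and 348 in control. That of PCDHA11 had 0 and 0 counts in shCBX8-1, 274 and 282 in shCBX8-2, and 292 and 0 in control. That of PCDHAC1 had 0 and 100 counts in shCBX8-1, 380 and 0 in shCBX8-2, and 320 and 0 in control. Both libraries of a group could thus be at opposite ends for the same entry, while the sum over alpha entries with constant exons was 2864 and 2963 counts in shCBX8-1, 2989 and 3458 in shCBX8-2, and 3058 and 3080 in control. The single-exon entry of PCDHAC1 was counted in every library, with 260 and 250 counts in shCBX8-1, 265 and 522 in shCBX8-2, and 189 and 394 in control. Whether the changes between replicates lie in the RNA or in the assignment of reads to entries was not tested. Tested entry by entry as deposited, 0 of the 36 member entries that passed the filter were called by edgeR in any contrast, with 4 at an unadjusted p under 0.05 in shCBX8-2 against control and 5 against shCBX8-1; no other tool was run on entries. Over all 40859 entries tested in this way 0 were called in shCBX8-2 against control and 1 against shCBX8-1, so the 0 among members is no result about them.

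**Figure D5:**
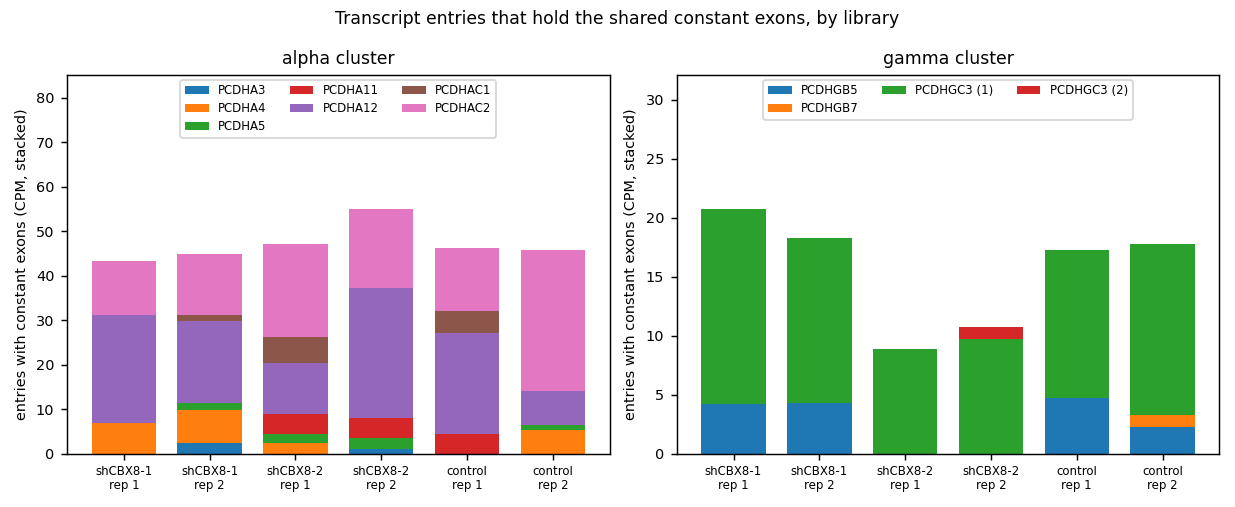
Stacked CPM of the alpha and gamma transcript entries that hold the constant exons and reach 50 counts in a library, by library; numbers in brackets tell apart 2 entries of a gene. The height of the alpha columns is similar while their composition changes between replicates, and the PCDHGB5 segment is missing in both shCBX8-2 libraries.

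Other genes of the same adhesion families gave mixed results. For these and the lists below, 12.7% of all tested genes were called in shCBX8-2 against control, 6.03% that rose and 6.66% that fell. Against shCBX8-1 it was 9.84%, 4.05% that rose and 5.79% that fell. The lists are short, and no list was tested as a set. Of 12 non-clustered protocadherins, 9 were tested. In shCBX8-2 against control 1 rose and 2 fell, with a median log2 fold change of -0.35 beside -0.04 over all genes tested, and against shCBX8-1 0 rose and 2 fell, with a median of -0.85 beside -0.01. PCDH7 rose against control in shCBX8-1 (1.23 ± 0.13, adjusted p = 0.011 by edgeR) and in shCBX8-2 (1.13 ± 0.13, adjusted p = 0.0047), with 30.9 and 36.0 CPM in shCBX8-1, 31.6 and 30.6 CPM in shCBX8-2, and 13.1 and 15.3 CPM in control. PCDH1 and PCDH9 fell in shCBX8-2 against control (-0.83 ± 0.17, adjusted p = 0.0229, and -0.96 ± 0.18, adjusted p = 0.0203). Of 9 FAT, Dachsous and CELSR cadherins, which are large cadherins of planar polarity and tissue growth, 2 rose in shCBX8-2 against control and 0 fell (median -0.06). CELSR1 rose in shCBX8-1 (0.45 ± 0.07, adjusted p = 0.0323) and in shCBX8-2 (0.36 ± 0.07, adjusted p = 0.0228), and FAT1 rose in shCBX8-2 (0.34 ± 0.06, adjusted p = 0.0212).

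Among 13 genes of CTCF and cohesin, the looping machinery of the clusters, 3 rose and 0 fell in shCBX8-2 against control (median 0.23 beside -0.04). Over all tested genes 6.03% rose and 6.66% fell there. SMC1A, a core cohesin subunit, had 137 and 134 CPM in shCBX8-1, 203 and 215 CPM in shCBX8-2, and 135 and 138 CPM in control, and rose in shCBX8-2 against control (0.61 ± 0.07, adjusted p = 0.00438 by edgeR). SMC3, its partner in the ring, rose by 0.42 ± 0.08 (adjusted p = 0.0198) and CTCF by 0.35 ± 0.08 (adjusted p = 0.036). Among 14 genes of DNA methylation and of the SMCHD1 and SETDB1 silencing pathways, 1 rose and 0 fell in shCBX8-2 against control (median -0.01). That gene was DNMT1, the maintenance DNA methyltransferase, at 0.57 ± 0.08 (adjusted p = 0.00876). SMCHD1 and SETDB1 themselves were at 0.09 ± 0.24 and 0.14 ± 0.09, and did not pass.

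Of 17 binding partners and proteases of the cytoplasmic domain, 2 rose and 1 fell in shCBX8-2 against control (median 0.02). Over all tested genes 6.03% rose and 6.66% fell there. FYN, a Src-family kinase, had 7.05 and 5.87 CPM in shCBX8-1, 1.36 and 1.49 CPM in shCBX8-2, and 4.98 and 6.07 CPM in control, and fell by 1.95 on the log2 scale (SE 0.21, adjusted p = 0.00395 by edgeR). CYFIP1, a subunit of the WAVE complex, rose by 0.27 ± 0.07 (adjusted p = 0.0496), and PTK2 was at 0.07 ± 0.07, which did not pass. Of 18 genes that neighbour the clusters on 5q31, 17 were tested, and 1 rose and 3 fell in shCBX8-2 against control (median -0.02). DIAPH1, a formin next to the gamma cluster, rose by 0.58 ± 0.07 (adjusted p = 0.00443). ARAP3, a GTPase-activating protein, fell by 1.31 (SE 0.15, adjusted p = 0.0042), RELL2 by 0.98 (SE 0.13, adjusted p = 0.00716) and RNF14 by 0.44 (SE 0.1, adjusted p = 0.0388). TAF7, which lies between the beta and gamma clusters, had 94.1 and 94.0 CPM in shCBX8-1, 85.1 and 81.6 CPM in shCBX8-2, and 96.6 and 94.5 CPM in control (-0.20 ± 0.07, adjusted p = 0.13).

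Marker lists also moved with the groups, and their part in the protocadherin results was not tested. The 8 A549-type epithelial markers summed to 23800 to 24300 CPM in shCBX8-1, 29800 to 33600 CPM in shCBX8-2 and 27000 to 27700 CPM in control, mostly from KRT8 and KRT18. In shCBX8-2 against control KRT8 (0.24 ± 0.06, adjusted p = 0.0466 by edgeR), KRT18 (0.28 ± 0.07, adjusted p = 0.037) and EPCAM (1.17 ± 0.2, adjusted p = 0.0129) rose and CDH2 fell by 1.39 (SE 0.21, adjusted p = 0.00983). In shCBX8-1 against control KRT19 rose (3.39 ± 0.31, adjusted p = 0.00766), and CDH1 and AKR1C1 fell by 0.92 and 0.5 (adjusted p = 0.0241 and 0.0397). The 12 neuronal markers summed to 513 to 520 CPM in shCBX8-1, 456 to 521 CPM in shCBX8-2 and 398 to 400 CPM in control, with TUBB3 as the largest part (416 and 406 CPM in shCBX8-1, 478 and 413 CPM in shCBX8-2, and 300 and 294 CPM in control). Of 8 tested, 1 rose and 4 fell in shCBX8-2 against control, beside 6.03% and 6.66% of all tested genes. SYT1 fell by 1.31 (SE 0.13, adjusted p = 0.0033 by edgeR), RBFOX3 by 2.09 (SE 0.23, adjusted p = 0.00392) and NEFL by 1.04 (SE 0.11, adjusted p = 0.00353). In control SYT1 had 29.5 and 26.4 CPM, RBFOX3 18.8 and 24.5 CPM and NEFL 37.8 and 41.2 CPM. ELAVL4, DCX and GAP43 of the same list had no count in any library. Fibroblast markers summed to 8.94 to 10 CPM in shCBX8-1, 5.61 to 6.24 CPM in shCBX8-2 and 12.5 to 15 CPM in control, with DCN at 0 in every library, and COL1A1 fell by 1.27 in shCBX8-2 against control (SE 0.18, adjusted p = 0.00785 by edgeR). Endothelial markers summed to 2.73 to 4.12 CPM in shCBX8-1, 4.16 to 5.72 CPM in shCBX8-2 and 1.88 to 2.74 CPM in control, with KDR at 0 in every library. Leukocyte markers summed to 117 to 121 CPM in shCBX8-1, 93.7 to 96.5 CPM in shCBX8-2 and 81.0 to 85.3 CPM in control, nearly all of it CD68, with CD3E at 0.

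The calls of single genes in these lists were sensitive to the number of libraries. All 28 list-gene calls against control printed with a fold change for 1 knockdown group were lost without at least 1 library, always a control library and for some also an shCBX8-1 library, with adjusted p (edgeR) of at most 0.298, and all 28 kept their sign. FYN, ARAP3, RBFOX3 and NEFL in shCBX8-2 were lost only without control replicate 2 (adjusted p = 0.0583, 0.0613, 0.0555 and 0.0521) and SYT1 only without control replicate 1 (0.0525). With 1 control library left out SMC1A was at an adjusted p of at most 0.0676 and DNMT1 of at most 0.0806. Taken as the transcript entry with the smallest p, CYFIP1 in shCBX8-2 was at -1.81 and RBFOX3 at 9.16 log2, opposite in sign to the gene sums and not called.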

How the data were processed

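The authors' deposited table gives expected counts, that is reads estimated for each RefSeq transcript with no scaling between libraries; every value was a whole number. The submitters' processing notes name HISAT2 2.2.1, StringTie 2.2.1, DESeq2 1.34.0 and hg38 without roles, with the counting step and annotation not given in the sources used. Of 84787 entries, 83963 were matched to genes by RefSeq (GRCh38.p14) and 376 by GENCODE v29, and the other 448 were kept as they were. Counts were summed per gene.

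The test was edgeR's quasi-likelihood test (edgeR 4.0.16, R 4.3.3) on the 17107 genes left by filterByExpr with a count of 10 and a total of 15 as minima, after TMM scaling, in a single fit of 6 libraries in 3 groups with 3 residual degrees of freedom. Two-sided p-values were adjusted over these genes (Benjamini-Hochberg, threshold 0.05). The steps were also run on simulated counts drawn at the fitted spread, with no GC trend, so that run does not test the results above. Standard errors were derived from F. DESeq2 1.42.0 was an alternative.

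Members and gene lists were chosen with earlier results of these data known. Named genes were every called member, the 4 most abundant per cluster, the C-types, up to 4 per other list by p in knockdown against control, and CBX8; genes outside this rule, such as members with no counts and further genes called in a list, were named after their values were seen. Entries with constant exons were recognised from GENCODE v29 exons. GC content came from the longest GENCODE transcript, with 0.1 CPM added before the log2.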

Additional observations from a re-analysis of the deposited data

Results flagged for a closer look

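In 4 members the effect against control differed between the knockdown groups by the test of shCBX8-2 minus shCBX8-1 (edgeR, 2 libraries a group, adjusted over 17107 genes). PCDHB2 differed by -2.67 log2, with 0.567 and 0.874 CPM in shCBX8-2, against 4.02 and 5.17 CPM in shCBX8-1. PCDHGB5 differed by -2.60 log2, PCDHA4 by -1.83 log2 and PCDHAC1 by 0.99 log2. Each of these last genes has a 4-exon entry with counts of 0 and 0 (PCDHGB5), 146 and 0 (PCDHA4) or 380 and 0 (PCDHAC1) in shCBX8-2. Whether their differences lie in the RNA or in the assignment of reads to entries was not tested. In each of the 4 genes both shCBX8-2 libraries were on the same side of both shCBX8-1 libraries. The genes were picked by the test on these libraries, so this adds no support. Of all genes with any count, 23.9% were lower in both shCBX8-2 libraries in this way and 23.0% higher. CBX8 itself was 1.02 log2 higher in shCBX8-2 than in shCBX8-1.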

How the results depend on the processing

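With counts of called members, the mean of both knockdown groups (0 called) gave 0 to 1 when single libraries were left out, the 1 being PCDHGB5. For shCBX8-1 against control (0 called) the DESeq2 Wald test gave 1, a fit of only the libraries compared gave 2, and leaving out single libraries gave 0 to 1. For shCBX8-2 against control (2 called) no filter gave 1, only the libraries compared gave 0, transcripts as deposited gave 0, and leaving out single libraries gave 0 to 4. For shCBX8-2 against shCBX8-1 (4 called) the DESeq2 Wald test gave 7, no filter gave 2, transcripts as deposited gave 0, and leaving out single libraries gave 0 to 7. As transcripts, 0 of all 40859 entries were called in shCBX8-2 against control and 1 against shCBX8-1, so those counts of 0 say nothing about the members. With replicate number as a block, 1 member was called in shCBX8-2 against control and 2 against shCBX8-1. Same-numbered libraries did not deviate together from their group means (correlations -0.015 to 0.021). With 2 libraries a group this cannot exclude a matched preparation, which the labels do not give.

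Leaving out single libraries moved the cluster log2 ratios of shCBX8-2 over control to 0.01 to 0.21 for alpha, -1.93 to -1.24 for beta and -0.87 to -0.66 for gamma, and those over shCBX8-1 to -0.01 to 0.19, -2.83 to -2.14 and -1.05 to -0.83. Reversed values were those of PCDHGB5 in shCBX8-1 against control without control replicate 2 (-0.07, in a range of -0.07 to 0.99 over the libraries left out) and, for transcripts as deposited, of CYFIP1 (-1.81) in shCBX8-2, DIAPH1 (-1.13) in the knockdown mean and RBFOX3 (9.36 in the knockdown mean, 9.56 in shCBX8-1 and 9.16 in shCBX8-2); the cause was not tested. Of the other values of single genes 657 kept their side of the threshold, 356 lost it and 8 gained it. The 24 members left out by the filter on low counts have no test of their own.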
